A study of Rattus norvegicus with 59 samples.

Results

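The ribosomal protein genes were taken as every probe set whose single gene symbol in the array annotation is Rpl or Rps followed by a digit, or Rplp0, Rplp1, Rplp2 or Rpsa, leaving out the Rps6k kinases. That gave 63 of the 8740 probe sets that are not controls, for 43 of the 4736 genes that have a probe set with 1 symbol. Of these, 60 probe sets of 42 genes were bright enough to be tested, among 5244 tested in all. The 3 that were too dim were both probe sets of the pseudogene Rps2-ps1 and 1 of the muscle-type paralog Rpl3l. A further 40 probe sets carry several symbols with a ribosomal protein name among them; they were not counted as members, and 38 of them were tested.

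Total RNA of amygdala, nucleus accumbens, hippocampus, striatum and frontal cortex was hybridised to a rat Affymetrix expression array, 1 array per region and animal. The rats were adult males of a pair of inbred lines derived from selection on alcohol drinking: iP5C, alcohol preferring (iP, animals 1 to 6), and iNP1, non-preferring (iNP, animals 7 to 12). No group is described as receiving alcohol or any other agent, and all were habituated to handling before decapitation. Each region had 6 arrays per line, except that iP cortex had 5 (the frontal cortex array of the sixth iP animal was not analysed here), which gives 59 arrays. Each line is inbred, so the 6 animals of a line stand for 1 genotype, and a line difference cannot be told apart from any other fixed difference between the lines.

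Ribosomal proteins are the protein components of the small (40S, Rps) and large (60S, Rpl) subunits of the cytoplasmic ribosome, the machine that translates messenger RNA. Their genes are transcribed at high rates in nearly every cell, and the products are made in balanced amounts because each subunit holds 1 copy of most of them. Their messenger RNAs typically begin with a cytosine followed by an unbroken run of pyrimidines (C and T), the terminal oligopyrimidine tract, through which growth signals passing through mTOR control their translation. In neurons, ribosomes lie in the cell body and in dendrites, where local translation takes part in synaptic change.

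The start-site windows below are shown because that tract is typical of these messenger RNAs, though not every annotated start holds a long run. They are those of Rpl6, the gene called between the lines among the tested members, and the 7 genes called lower in cortex. Each window holds 15 bases before and 15 bases from the annotated start on, 5′ to 3′ on the gene's strand, with the longest unbroken run of C and T in capitals. Sequences and positions are RefSeq's, build GRCr8.
Rpl6, chr12:41011676-41011705, minus strand: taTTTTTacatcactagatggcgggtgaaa
Rpl3, chr7:113507976-113508005, minus strand: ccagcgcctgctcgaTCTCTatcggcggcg
Rps27l, chr8:76443643-76443672, plus strand: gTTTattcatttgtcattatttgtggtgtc
Rpl13a, chr1:104748899-104748928, minus strand: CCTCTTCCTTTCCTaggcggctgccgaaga
Rpsa, chr8:128728864-128728893, plus strand: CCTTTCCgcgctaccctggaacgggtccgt
Rpl27a, chr1:172974558-172974587, plus strand: cgagacttggtgggCTCCTCCCTCTTTCTT
Rpl19, chr10:83519049-83519078, plus strand: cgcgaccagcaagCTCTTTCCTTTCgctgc
Rplp0, chr12:46718376-46718405, minus strand: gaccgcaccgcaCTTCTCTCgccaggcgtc

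A RefSeq start window was found for 37 of the 43 genes, 36 of them by gene ID. A run of 8 or more pyrimidines on the gene's strand lay in 22 of the 37 windows (59.5%), against 11.4% of 27457 start windows of rat genes. The median longest run was 9 bases in the family and 4 in all windows. The 6 letters CTTTCC, read on the gene's strand and often inside such a run, were in 10 of 37 windows (27%) and in 1.3% of all. Over the 300 bases of each promoter, on both strands, ACTTCCG was in 27% of the family and 6.7% of all, and AAGATGGC in 10.8% and 3.44%. Of the 7 genes called lower in cortex, 4 (Rpl13a, Rpl27a, Rpl19 and Rplp0) have a run of at least 8, and the annotated Rpl6 start has a longest run of 5. A match is only a match of letters in these windows, and annotated starts can lie some bases away from the used start.

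Ribosomal protein signals were among the brightest on the array. The median probe set of the family had a mean log2 signal of 12.98, against 9.65 over all tested probe sets. The brightest were Rps29 (probe set rc_AA965264_at, signal 16054 to 38501 over the 59 arrays), its other probe set X59051cds_s_at (20042 to 33708) and Rps16 (12428 to 29520), all of the small subunit. The dimmest tested were Rpl5 (150 to 398), which binds the 5S ribosomal RNA, Rpl30 (48.3 to 684) and the Rpl21 probe set rc_AA849648_g_at (182 to 772). Each probe set has its own response, so this order describes signal on the array and not transcript abundance. Spread between animals within a group was 0.187 at the median of the family (SD, log2) and 0.281 over all tested probe sets; it ran from 0.116 for Rpl3 (X62166cds_s_at) to 0.966 for Rpl30.

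A pair of arrays stood apart and were kept. The iP 5 cortex array gave far more signal at the 3′ than at the 5′ end of Gapdh, by 6.14 (log2), where all other arrays lay between -0.15 and 0.44. The mean of this ratio was 0.19 in both lines in amygdala and 0.07 in iNP cortex. For iP and iNP it was 0.06 and 0.07 in striatum, 0.03 and 0.05 in hippocampus, and 0.11 and -0.005 in accumbens. Its part in the region differences was not tested beyond the alternative fits with a Gapdh covariate. Amygdala of iP animal 1 had a mean log2 signal of 8.06 over 4 amygdala and ventral forebrain markers (Aldh1a2, Plagl1, Crabp2 and Gpc3), with 9.51 to 10.19 on the other 11 amygdala arrays and 7.28 to 8.61 on the 10 cortex arrays besides that of iP animal 5. Medium spiny and hippocampal neuron markers followed the labels: 6 of 7 medium spiny neuron genes were called higher in striatum, 7 of 7 in accumbens and 5 of 5 hippocampal genes in hippocampus. The amygdala and ventral forebrain genes were not particular to amygdala. Of the 4, 4 were called higher in amygdala and 3 in accumbens (list medians 1.64 and 1.22). The only cortical projection neuron marker on the array was too dim to test. In bulk tissue, fewer cells of a type and less RNA per cell cannot be told apart. The counts of calls in each region are given with and without this pair of arrays. So are the Rpl6 differences in cortex and amygdala and the leading cortex and amygdala genes.

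The first comparison was between the lines. Rpl6, a protein of the large subunit, was lower in iP than in iNP by both of its probe sets, and these 2 were the only called members of the 60 (limma, Benjamini-Hochberg adjusted p under 0.05 over all 5244 probe sets; 2.65% of all tested probe sets were called). Both calls were downward, the direction of 1.45% of all tested probe sets. Averaged over the regions of each animal, the probe set rc_AA799672_s_at read 12.75, 12.80 and 12.90 (lowest, median and highest log2 signal) in the 6 iP animals and 13.05, 13.12 and 13.29 in the 6 iNP animals. The probe set S71021_s_at read 12.78, 12.86 and 12.96 in iP and 13.08, 13.13 and 13.15 in iNP. The lines did not overlap for either, which held for 2 of 60 members and for 2.86% of all tested probe sets. The difference, iP minus iNP, was -0.33 ± 0.05 (log2, SE; 95% interval -0.43 to -0.22, n = 6 and 6 animals, limma adjusted p = 0.000762) for rc_AA799672_s_at. For S71021_s_at it was -0.26 ± 0.04 (interval -0.34 to -0.17, limma adjusted p = 0.00132). On the linear scale, iP against iNP was -20.2% and -16.3%. Without the pair of arrays that stood apart the differences were -0.35 and -0.25 and both stayed called. Both probe sets carry the suffix s, which in this array's naming marks probes shared with similar sequences, so transcripts of other Rpl6 copies could contribute. Probe sequences were not used here, so for Rpl6, and for Rps2-ps1 below, a sequence difference between the lines under the probes and a difference in transcript level cannot be told apart.

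Some markers of other cells differed between the lines too. Of 4 microglia genes 1 was lower in iP (P2ry12, -0.77), of 4 blood genes 1 (Hbb-b1, -0.38) and of 2 endothelial genes 1 (Pecam1, -0.47); no marker was called higher. The summed signal of the microglia list overlapped between the lines in every region, for example 3216 to 5828 in iP amygdala and 4636 to 5209 in iNP amygdala. The blood list summed to 26593 to 43626 in iP amygdala and 34212 to 63593 in iNP amygdala. Their part in the Rpl6 difference was not tested.

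**Figure D1:**
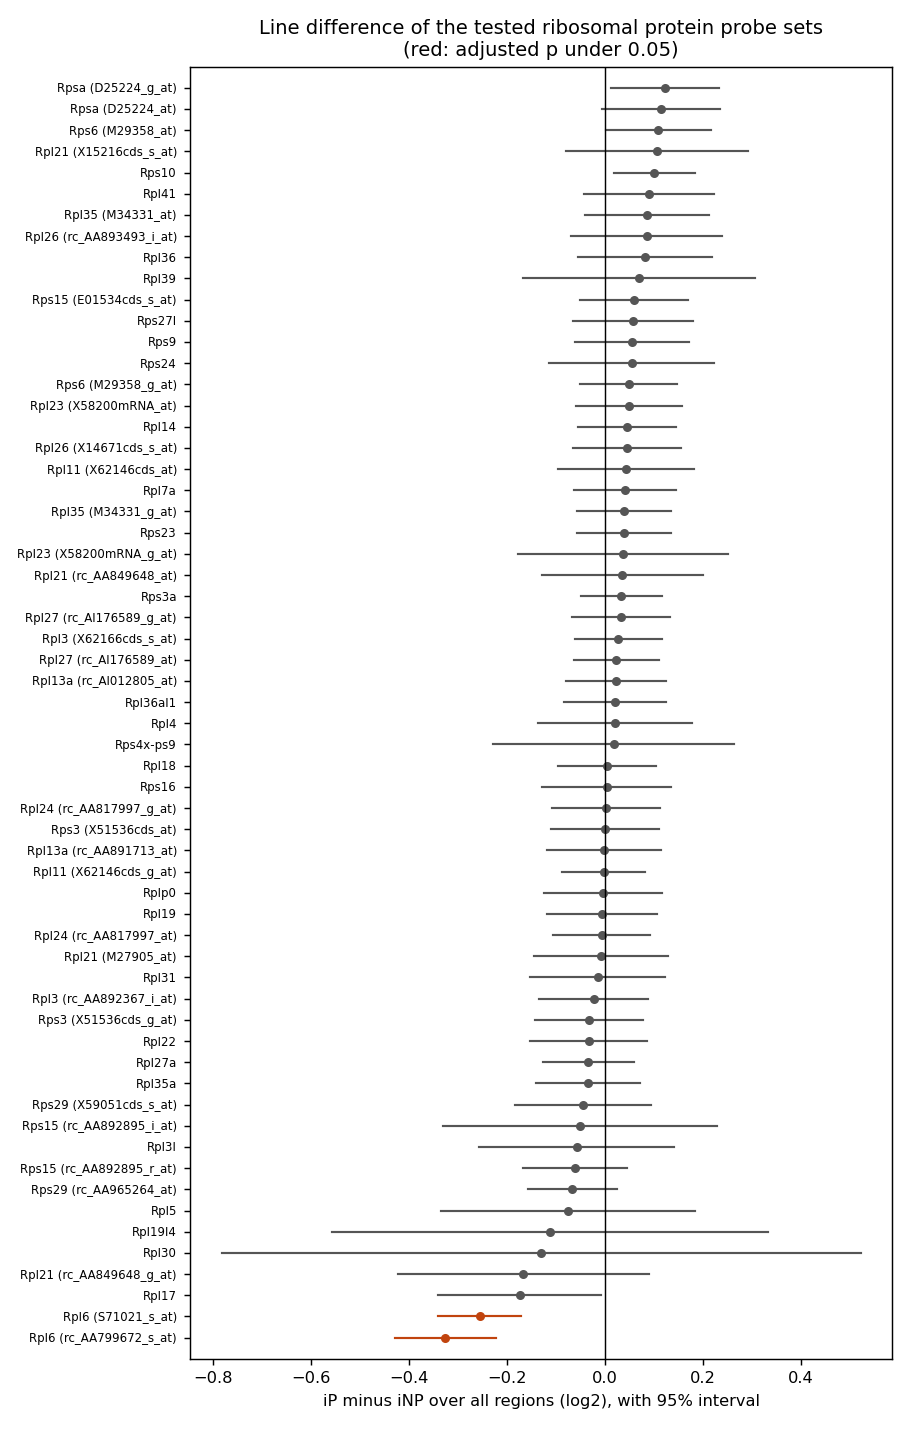
Difference between the lines over all regions (log2, horizontal axis) for each of the 60 tested ribosomal protein probe sets, with 95% intervals; points are estimates from 6 iP and 6 iNP animals. Both Rpl6 probe sets, in red, lie lowest, at -0.33 and -0.26, and 48 of the 60 intervals stay within 0.25 of no difference.

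No other member was called. The median difference was 0.02 in the family and -0.01 over all tested probe sets, and 35 of 60 members were higher in iP. Of the 60 intervals, 48 (80%) lay within 0.25 (log2) of 0, against 51.4% of all tested probe sets, and 58 lay within 0.5. At an unadjusted p under 0.05 there were 6 members, against 11.9% of all probe sets. None of the 38 tested probe sets with several symbols was called.

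The next largest differences did not pass the threshold. Rpl17, of the large subunit, had animal means of 9.09, 9.19 and 9.50 (lowest, median and highest log2 signal) in iP and 9.26, 9.44 and 9.51 in iNP, with a difference of -0.17 (adjusted p = 0.382 by limma); the lines overlapped. Rpl21 by rc_AA849648_g_at had a difference of -0.17 (limma adjusted p = 0.637), and Rpl30, which also binds its own pre-mRNA in yeast, -0.13 with an interval from -0.78 to 0.52. Rpsa, the small subunit protein also known as the laminin receptor, had 0.12 by D25224_g_at (limma adjusted p = 0.350) and 0.11 by D25224_at. By subunit, 0 of 17 small subunit probe sets and 2 of 37 large subunit probe sets were called, both of them Rpl6, with medians of 0.04 and 0.02.

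By region, the Rpl6 difference was below 0 in all 5 regions by both probe sets, and passed the test only in striatum and only by S71021_s_at. In accumbens its direction by S71021_s_at turned without iNP animal 11 (0.026). The iP cortex arrays read 12.53, 12.41, 12.85, 12.69 and 13.05 (log2, animals 1 to 5) by rc_AA799672_s_at; the highest was animal 5, the array with the high Gapdh ratio. The 6 iNP cortex arrays ran from 12.73 to 13.35, so the groups overlapped. By S71021_s_at the 5 iP cortex arrays read 12.87, 12.60, 12.80, 12.76 and 13.17, and the iNP arrays ran from 13.01 to 13.19. In striatum that probe set read 12.85, 12.92 and 13.00 (lowest, median and highest) in iP and 13.17, 13.22 and 13.35 in iNP with no overlap. Its striatal difference of -0.33 ± 0.06 (limma adjusted p = 0.0109, n = 6 and 6) was the only member call of the 60 in any single region. By rc_AA799672_s_at the striatal arrays ran from 12.62 to 13.05 in iP and from 12.72 to 13.43 in iNP, which overlap, and the difference was -0.25 ± 0.12 (limma adjusted p = 0.634). In striatum 0.839% of all tested probe sets were called, and 0.477% were called lower.

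In amygdala S71021_s_at read 12.34, 12.77 and 12.97 in iP and 13.09, 13.17 and 13.20 in iNP, again without overlap, as for 1.14% of all tested probe sets. The difference of -0.42 ± 0.09 had a limma adjusted p of 0.0537; without amygdala of iP animal 1 it was -0.34 with an adjusted p of 0.0212 by limma. By rc_AA799672_s_at the amygdala difference was -0.45 ± 0.11 (limma adjusted p = 0.0894), and -0.48 without that array (limma adjusted p = 0.0612). In hippocampus the differences were -0.37 and -0.23 for rc_AA799672_s_at and S71021_s_at, and in cortex -0.37 and -0.24. Without cortex of iP animal 5 the cortical differences were -0.45 and -0.32, with limma adjusted p of 0.288 and 0.106. They were smallest in accumbens, at -0.21 and -0.04 with overlapping lines. No member was called in cortex (limma; 0.229% of all tested probe sets called), hippocampus (0.667%), amygdala (0.725%) or accumbens (0.572%). At an unadjusted p under 0.05 there were 2, 3, 2 and 3 members in these regions, against 5.26%, 7%, 8.75% and 7.06% of all tested probe sets.

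**Figure D2:**
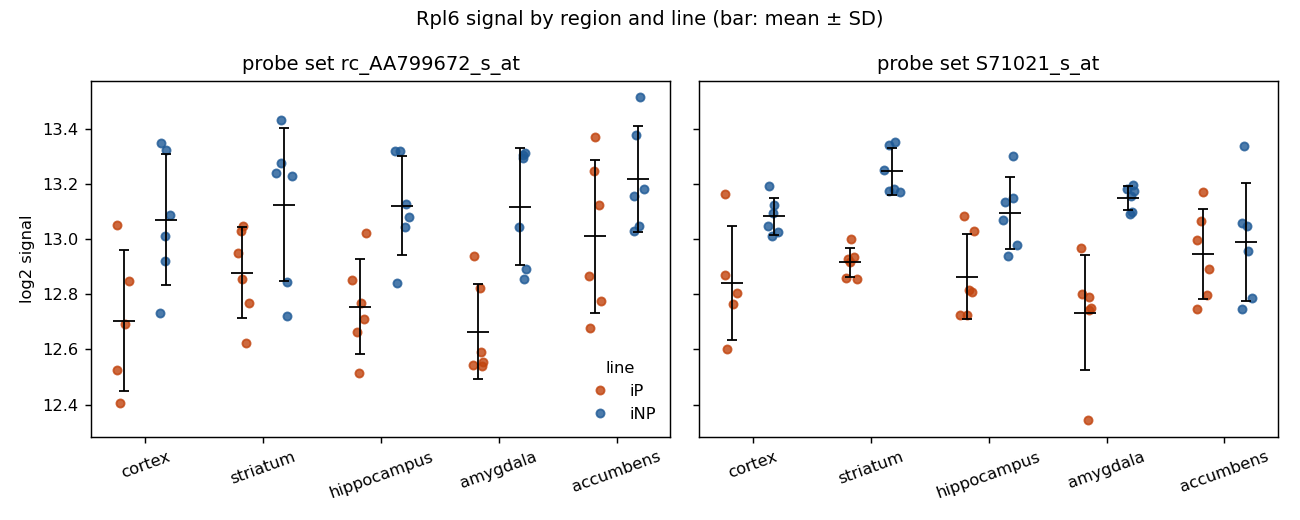
Log2 signal of the Rpl6 probe sets rc_AA799672_s_at (left) and S71021_s_at (right) by region, with 1 point per animal, iP in red and iNP in blue; bars are means ± SD of 5 or 6 animals. By S71021_s_at the lines are separate in striatum and amygdala and overlap in accumbens.

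The difference between the lines was not shown to vary between regions for any member. The moderated F test of the interaction called 0 of 60 members and 0 of 5244 probe sets (limma; 0% of all), and at an unadjusted p under 0.05 it found 0 members and 242 of all probe sets (4.61%). Among members, the unadjusted p of this F test was 0.0583 for Rpl21 by X15216cds_s_at and 0.0637 for Rpl6 by S71021_s_at. In striatum Rpl17 also had lines that did not overlap, 9.06 to 9.18 in iP and 9.21 to 9.72 in iNP, as for 1.43% of all tested probe sets; its difference of -0.38 was not called (limma adjusted p = 0.210).

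The dim pseudogene Rps2-ps1, a copy of the gene of the small subunit protein Rps2, lay under the signal cut (a mean signal of 201) and entered only the fits with no filter over 8740 probe sets. By L81138exon_i_at the signal ran from 13.1 to 69.1, with a median of 22.7, over the 29 iP arrays, 5 of which were raised to the floor of 16. Over the 30 iNP arrays it ran from 121 to 631, with a median of 299. The lines did not overlap in any region. Among the 5244 tested probe sets, 1.43% had no overlap in striatum and 1.14% in amygdala. The share over all 8740 was not counted. Its difference over all regions was -3.66 ± 0.14 (log2, SE; limma adjusted p = 6.42e-09, n = 6 and 6 animals), and it was called lower in each region, from -3.97 in striatum to -3.42 in accumbens. With no filter, the share of all probe sets called lower was 0.0686% for cortex, 0.32% for striatum, 0.286% for hippocampus, 0.263% for amygdala and 0.252% for accumbens. The size depends on the floor: with a floor of 64, chosen after seeing the data, it was -2.29.

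By L81137exon_s_at the Rps2-ps1 signal ran from 12.1 to 145 in iP and from 113 to 246 in iNP, and the lines overlapped in striatum only. How many of all 8740 probe sets had no overlap in the other regions was not counted, so this has no share to be set against. The difference was -1.54 ± 0.13 (limma adjusted p = 8.34e-06), and it was called in hippocampus (-1.31) and accumbens (-1.69). With no filter, 4 of 63 members were called lower over all regions, both probe sets of Rpl6 and both of Rps2-ps1, against 1.06% of all probe sets. Of these, L81138exon_i_at has the suffix i, which marks an incomplete probe set, and L81137exon_s_at the suffix s, so transcripts of Rps2 or its other copies could contribute. The dim Rpl3l probe set had a difference of -0.16 and was not called.

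**Figure D3:**
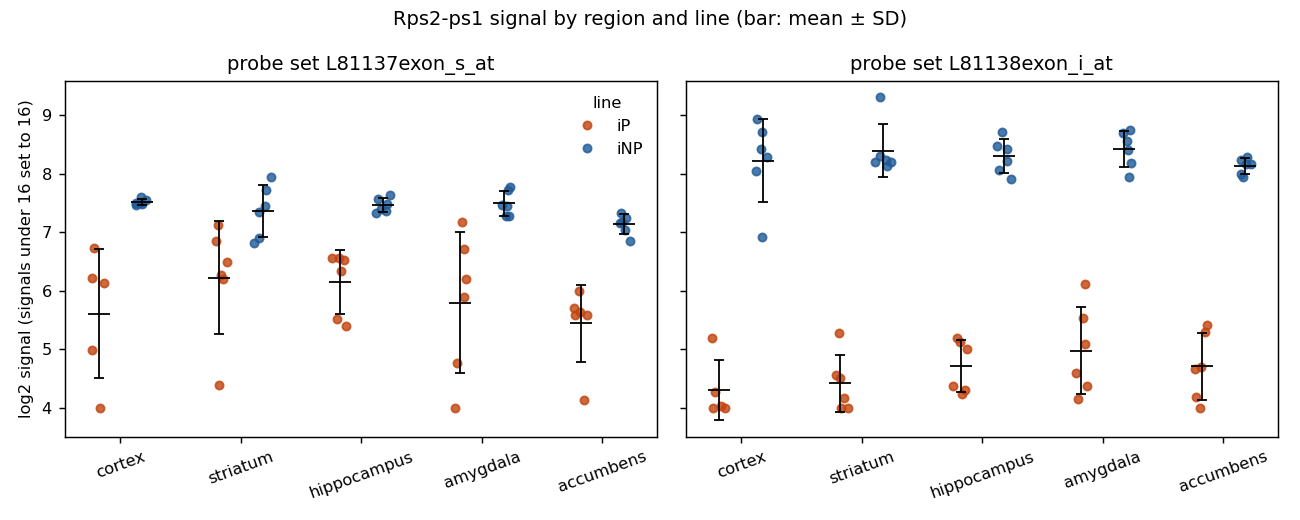
Log2 signal of the Rps2-ps1 probe sets L81137exon_s_at (left) and L81138exon_i_at (right) by region, with 1 point per animal and signals under 16 set to 16; bars are means ± SD. By L81138exon_i_at every iP point lies under every iNP point, with signals up to 69.1 in iP and from 121 in iNP.

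Probe sets of 1 gene could be compared for 15 genes, in 22 pairs. In 12 pairs the line difference had the same sign. The Rpl6 pair differed by 0.07 (log2). The pair farthest apart was of Rpl21, at -0.17 for rc_AA849648_g_at and 0.11 for X15216cds_s_at. Next came rc_AA849648_g_at against the Rpl21 probe sets rc_AA849648_at (0.03) and M27905_at (-0.01). After these came Rps15, at 0.06 for E01534cds_s_at and -0.06 for rc_AA892895_r_at. None of these probe sets was called.

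The second comparison set each region against the mean of the other 4, within animals. The range of the 5 region means had a median of 0.19 (log2) over the 60 members and was under 0.25 for 45 of them. This range was not computed over all tested probe sets. The median absolute difference from the other regions was 0.09 in cortex and 0.06 in amygdala, against 0.11 and 0.13 over all tested probe sets. In cortex 10 members were called lower and 0 higher (limma; 17% of all tested probe sets were called, 9.19% lower). The family's median was -0.09 against -0.02 for all tested probe sets, and only 5 of 60 members were above 0. Cortex of iP animal 5 went the other way: the median deviation of the 60 members from their means was 0.29 there and between -0.14 and -0.11 on the other 4 iP cortex arrays. Without that array and amygdala of iP animal 1, 24 members were lower in cortex, among them the same 10, against 11.9% of all tested probe sets.

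**Figure D4:**
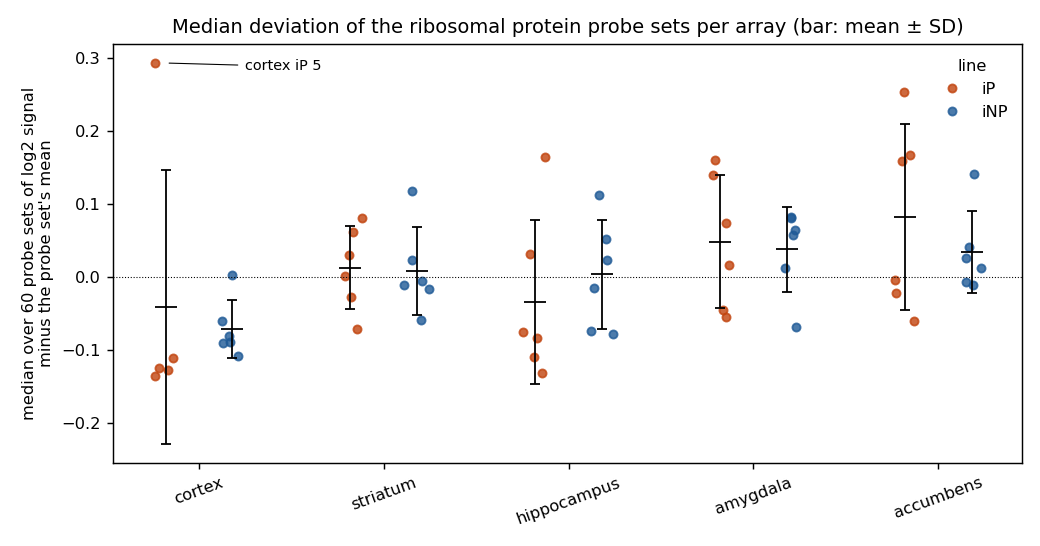
Median over the 60 tested ribosomal protein probe sets of log2 signal minus each probe set's mean, with 1 point per array, by region and line; bars are means ± SD. Cortex of iP animal 5 stands at 0.29, and the other iP cortex arrays lie between -0.14 and -0.11.

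Among the called members the largest cortical difference was in Rpl3, which lies near the peptidyl transferase centre of the large subunit. By rc_AA892367_i_at it read 13.34, 13.66 and 14.02 (lowest, median and highest log2 signal) over the 11 cortex arrays and 13.75, 14.21 and 14.42 over the 12 amygdala arrays, so these regions overlapped only in part. Cortex minus the other regions was -0.32 ± 0.07 (limma adjusted p = 0.000369, lower in 9 of 11 animals), and by X62166cds_s_at it was -0.13. The dim Rpl30 had a larger difference of -0.53 that was not called (limma adjusted p = 0.178). Rps27l, a stress-responsive paralog of Rps27, read 9.53, 9.87 and 10.65 in cortex and differed by -0.25. Without the pair of arrays that stood apart, Rpl3 by rc_AA892367_i_at was -0.37 and Rps27l -0.35; the Rps27l call was lost when any of 5 single animals was left out. Rpl13a was lower in cortex by both probe sets, at -0.22 and -0.14, and Rpsa by both, at -0.21 and -0.18. The Rpsa probe sets come from 1 sequence record. Rpl27a (-0.18), Rpl19 (-0.18) and Rplp0 (-0.13), the protein at the base of the ribosomal stalk that recruits translation factors, complete the called genes. The count of 10 became 6 without iNP animal 9 and 23 without iP animal 5, and the Rpl13a call by rc_AA891713_at, with an adjusted p of 0.0477 by limma, was lost when any of 10 single animals was left out. Calls over all tested probe sets in cortex ran from 756 to 1083 with 1 animal left out.

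In amygdala 9 members were called higher and 1 lower (limma; 26.1% of all tested probe sets were called, 13.3% higher and 12.8% lower). Rpl3 was again the largest, 0.28 ± 0.07 higher than in the other regions by rc_AA892367_i_at (limma adjusted p = 0.000961, higher in 11 of 12 animals). By X62166cds_s_at Rpl3 had a difference of 0.07 (limma adjusted p = 0.167). Without the pair of arrays these were 0.32 and 0.09. Rpl39, a small protein of the exit tunnel, read 12.34, 12.68 and 13.06 in amygdala and was 0.27 higher, in 12 of 12 animals (0.31 without the pair of arrays). Rps27l was 0.22 higher and the pseudogene Rps4x-ps9 0.19 higher. Rpl41, Rpl35, Rpl36, Rps10 and Rpl31 were higher by 0.12 to 0.18, Rpl35 by M34331_g_at only (0.04 by M34331_at, not called). The Rpl21 probe set rc_AA849648_at was 0.22 lower, as -0.22 ± 0.08. Of 19 alternatives, the call was lost in 7 for Rps4x-ps9, 6 for Rpl21, 4 for Rps27l and 3 for Rpl39. The amygdala count was 2 without iNP animal 9 or iNP animal 11, 4 without iNP animal 10 and 6 without iP animal 2 or iP animal 4. Calls over all tested probe sets in amygdala ran from 1102 to 1446 with 1 animal left out. Without the pair of arrays that stood apart, 12 were called, against 33.4% of all tested probe sets.

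In accumbens 7 members were called, all higher (limma; 20.9% of all tested probe sets were called, 12.3% higher). Rps27l was 0.28 ± 0.08 higher than in the other regions. Rps6, the small subunit protein phosphorylated by S6 kinase, read 11.75, 12.11 and 12.35 in accumbens and 11.60, 11.83 and 12.26 in hippocampus by M29358_at, and was 0.20 ± 0.05 higher (limma adjusted p = 0.00210). By M29358_g_at the Rps6 difference was 0.10 and not called (limma adjusted p = 0.105). Rpl27 was 0.19 higher by both probe sets, Rpl18 0.17 higher, and Rpsa 0.16 and 0.14 higher. The Rpl27 pair and the Rpsa pair each come from 1 sequence record, and the 7 called probe sets are of 5 genes. Without iP animal 5 the count was 12, and without the pair of arrays that stood apart it was 11, all higher, against 13.8% of all tested probe sets. When single animals were left out, member calls in accumbens ran from 6 to 12 and calls over all tested probe sets from 962 to 1208. The total for the run without iP animal 5 is not given here.

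In hippocampus 3 members were called higher and 3 lower (limma; 23.3% of all tested probe sets were called, 10.8% higher and 12.5% lower). Rpl27, of the large subunit, read 12.13, 12.23 and 12.35 in hippocampus by rc_AI176589_at and 12.34, 12.54 and 12.69 in accumbens, with only a slight overlap. It was -0.17 ± 0.04 against the other regions (limma adjusted p = 0.00278, lower in 12 of 12 animals) and -0.16 by its other probe set. Rps3, a small subunit protein at the entry of the mRNA channel that also acts in DNA repair, was 0.14 and 0.15 higher by its probe sets. The Rpl27 pair and the Rps3 pair each come from 1 sequence record, and the 6 called probe sets are of 4 genes. Rpl13a was 0.22 higher by rc_AA891713_at, while its other probe set rc_AI012805_at had a difference of -0.0053 (limma adjusted p = 0.960). The dim Rpl30 was -0.68 ± 0.25 (limma adjusted p = 0.0429). Its arrays ran from 6.04 to 9.11 in hippocampus and from 5.59 to 9.42 in amygdala. This Rpl30 call was lost in 13 of the alternatives run and kept in 6. It was lost without the pair of arrays that stood apart (-0.66, limma adjusted p = 0.0504). With 1 animal left out, its adjusted p by limma ran from 0.0145 to 0.153. The Rpl13a call was lost when any of 5 single animals was left out. Without iP animal 1, 3 members were called, and without the pair of arrays 5, against 25.5% of all tested probe sets. Calls over all tested probe sets in hippocampus ran from 1081 to 1248 with 1 animal left out.

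In striatum 0 members were called (limma; 13.9% of all tested probe sets were called). At an unadjusted p under 0.05 there were 2, against 24.7% of all, and without the pair of arrays 1 was called, against 16.5%. Counting both directions, the family's share of calls was at or under that of all tested probe sets in each region, from 0% in striatum to 16.7% in cortex and amygdala. That turned round in cortex without the pair of arrays, where 24 of 60 members were called against 22.2% of all tested probe sets.

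**Figure D5:**
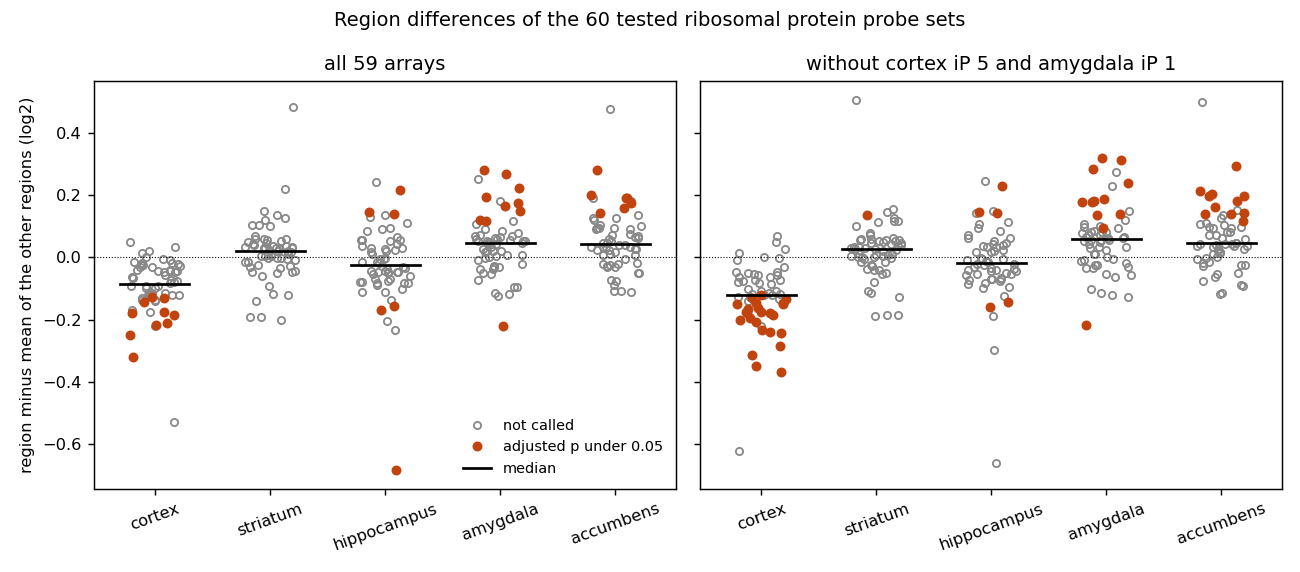
Region minus the mean of the other regions (log2) for the 60 tested ribosomal protein probe sets, with all 59 arrays (left) and without cortex of iP animal 5 and amygdala of iP animal 1 (right); filled red points have an adjusted p under 0.05 and lines are medians. In cortex the red points lie below 0, 10 on the left and 24 on the right.

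Neuron and glia markers also differed between regions. The summed signal of 8 neuron probe sets ran from 49728 to 65843 over the cortex arrays and from 28999 to 54050 over the amygdala arrays. Of 4 general neuron markers, 3 were called higher in cortex and 1 in hippocampus. In amygdala 4 were called lower, in accumbens 2 and in striatum 1. Of 5 oligodendrocyte markers, 5 were lower in amygdala, 5 higher in hippocampus, 4 higher in striatum, 3 higher in accumbens and 0 called in cortex. Of 4 blood markers, 3 were higher in accumbens (list median 0.61) and 2 in amygdala, while 3 were lower in striatum and 3 in hippocampus. Of 4 microglia markers, 2 were higher in amygdala and 1 in accumbens, and 2 were lower in hippocampus. Of 5 astrocyte markers, 1 was higher in each of hippocampus and amygdala, and 1 lower in each of striatum, amygdala and accumbens. Over all tested probe sets, 17%, 13.9%, 23.3%, 26.1% and 20.9% were called in cortex, striatum, hippocampus, amygdala and accumbens. The blood list summed to 35029 to 70203 over the accumbens arrays and to 21608 to 42106 over the hippocampus arrays. Their part in the ribosomal protein differences was not tested.

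Other genes of the translation pathway were read from lists. Over all regions, 2 of 13 tested initiation factors were higher in iP, where 2.65% of all tested probe sets were called: Eif2s3, the gamma subunit of eIF2, by 0.35 ± 0.04 (limma adjusted p = 0.000167), and Eif2b1, a subunit of its exchange factor eIF2B, by 0.40 ± 0.07 (limma adjusted p = 0.00191). Both were also called in amygdala, at 0.51 and 0.68. None of 4 elongation factors, 7 ribosome biogenesis genes, 12 mTOR and S6 kinase genes, 4 genes of the eIF2 stress kinase list, 14 mitochondrial ribosomal protein genes and 2 ribosome partners was called between the lines. Between regions, 3 of the 7 biogenesis genes were called higher in amygdala, as were 13.3% of all tested probe sets, among them Gnl3 by 0.35 and Dkc1 by 0.28, and nucleolin (Ncl) was lower, at -0.27. Of the same 7, 1 was called lower in each of cortex, striatum and hippocampus. The elongation factor Eef1a1 was 0.26 higher in accumbens, and of the 14 mitochondrial ribosomal protein genes 1 was called lower in each of cortex, striatum and hippocampus. In amygdala 1 of 4 elongation factors, 1 of 13 initiation factors and 1 of 2 ribosome partners were called higher. Of 12 mTOR and S6 kinase genes, 1 was called higher and 1 lower there. Some initiation, mTOR and stress kinase genes were called in other regions too.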

How the data were processed

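Arrays were labelled from total RNA of each animal, per the labels' protocols. The deposited values are linear signal intensities per probe set as the authors scaled them; the sources used here do not name the program. The mean of every array after trimming 2% at each end was 1000, so no scaling was added. Intensities under 16 were set to 16 and log2 transformed. The 59 control probe sets and the dimmest 40% were dropped, leaving 5244. Of 8740 probe sets, 7006 have 1 gene symbol, 308 several and 1426 none; 62 of the 63 members matched the GRCr8 gene table by gene ID. The source name label gives the non-preferring line for every array and was not used; titles and genotype gave the groups.

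Fits used limma 3.58.1 in R 4.3.3 with an intensity trend, two-sided tests and Benjamini-Hochberg adjustment over all tested probe sets. To compare the lines across regions, region levels were removed and 1 mean per animal was taken. Each region was also fitted alone. Region contrasts and the interaction (moderated F test) had the animal as a fixed block, since titles give the same animal number across regions. The fits were tested on simulated data. Arrays hold no read depth; the number of animals limits precision.

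Named probe sets were both of Rpl6, called members, the 6 largest line differences, up to 4 called each way per region, the 3 brightest and 3 dimmest, the 4 most discordant pairs and up to 4 called members of other lists. Other called genes, dim members and marker counts are given as well. Members and lists were chosen with earlier results of these data known. Alternatives were no filter, a floor of 64, quantile normalization, leaving out 2 arrays, array weights, a Gapdh covariate, other treatments of the animal and leaving out each animal.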

Additional observations from a re-analysis of the deposited data

Results flagged for a closer look

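Of 42 groups of values examined for a sample far from the others, 5 held one; about 1 in 20 such groups would by chance. The median deviation of the ribosomal protein probe sets was 0.293 on cortex of iP animal 5, against -0.136 to -0.112 on the other iP cortex arrays, and that array also had a Gapdh 3′ to 5′ ratio of 6.14 (log2). The part of RNA quality in that deviation was not tested. Rpl6 by S71021_s_at read 12.34 (log2) in amygdala of iP animal 1, against 12.74 to 12.97 in the other iP amygdala arrays. The median deviation of the family was 0.141 on accumbens of iNP animal 12, against -0.012 to 0.041 on the others. The animal mean of Rpl17 was 9.26 for iNP animal 10, against 9.42 to 9.51, and that of Rpsa by D25224_g_at was 12.95 for iP animal 1, against 13.14 to 13.19.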

How the results depend on the processing

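Both Rpl6 probe sets kept their call over all regions under every alternative run, with adjusted p up to 0.00524 by limma. With no filter, 4, 1, 2, 2, 1 and 2 members were called between the lines over all regions and in cortex, striatum, hippocampus, amygdala and accumbens; the added calls are Rps2-ps1. In amygdala 1 member was called between the lines after quantile normalization, without the 2 arrays that stood apart and with the animal as a random block, and 2 with array weights and with the Gapdh covariate. Cortex against the other regions had 17, 24, 23 and 25 calls with quantile normalization, without the 2 arrays, with array weights and with the covariate. Striatum had 1, 1, 4 and 1, and accumbens 14, 11 and 11 with quantile normalization, without the 2 arrays and with the covariate. Without the 2 arrays, 22.2%, 16.5% and 23.6% of all tested probe sets were called in cortex, striatum and accumbens. The shares under the other alternatives are not given here, so a change in the family and one over all probe sets cannot be told apart there. Without the replicate block on animal, amygdala had 6 calls in place of 10, and no other count moved beyond 1.5 times. Leaving out 1 animal gave 0 to 1 calls between the lines in amygdala, and 6 to 23 in cortex, 0 to 1 in striatum, 3 to 6 in hippocampus, 2 to 11 in amygdala and 6 to 12 in accumbens against the other regions. Over all tested probe sets the same runs called 22 to 51 between the lines in amygdala. Against the other regions they called 756 to 1083 in cortex, 600 to 732 in striatum, 1081 to 1248 in hippocampus, 1102 to 1446 in amygdala and 962 to 1208 in accumbens. The uncalled Rpl30 line difference ran from -0.38 to 0.016 with 1 animal left out, turning without iP animal 4, and that of Rpl6 by S71021_s_at in accumbens from -0.093 to 0.026, turning without iNP animal 11. Of the recomputed regional values of named probe sets, 303 kept their call and 58 lost it. The Rps2-ps1 alternatives were chosen after seeing the data; with quantile normalization its differences were -3.62 and -1.47, and with a floor of 64, -2.29 and -1.11. The cause of these changes was not tested. Differences in single regions rest on 5 or 6 animals per line, and dim probe sets near background are limited by signal.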
